A study of Homo sapiens with 84 samples.

Results

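Gene expression under PQR309 was set against gene expression under ibrutinib in 4 human lymphoma cell lines, RIVA, TMD8, SUDHL2 and U2932. The arrays were chosen by their labels: 12 PQR309 arrays and 12 ibrutinib arrays, 1 for each line at 4, 8 and 12 h, which makes 24 of the 84 arrays in the series. PQR309 inhibits both PI3K and mTOR, and ibrutinib inhibits the kinase BTK. The same lines and times under idelalisib and duvelisib, which inhibit PI3K isoforms, and under the solvent DMSO entered the same statistical model, and the DMSO arrays also served as the untreated level. The labels give neither a dose nor a statement that arrays came from separate cultures, and a line has 1 array per time and drug, so the 3 times were averaged within a line and the 4 lines served as replicates. P-values therefore rest on how far treatment differences varied between these lines, after the level of each line was removed. That spread was pooled over all treatments in the model, so it does not come from PQR309 and ibrutinib alone. RNA was taken from cells grown in vitro, so a change in level per cell and a change in the makeup of the culture cannot be told apart.

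B-cell receptor signals pass through BTK to phospholipase C and on to NF-kB, and in parallel through PI3K to AKT and mTOR. AKT keeps FOXO transcription factors out of the nucleus. mTOR complex 1 promotes ribosome production and lipid synthesis, partly through MYC and the sterol-regulated SREBP factors. In B-cell lymphomas of the activated type these pathways are often chronically active, and drugs against BTK and PI3K are used or studied against such lymphomas.

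The 24 arrays had median intensities of 83.74 to 117.3 under PQR309 and 84.07 to 122.2 under ibrutinib, and each of the 60 arrays in the model had an array of its own line as its nearest. The SUDHL2 8 h PQR309 array was dim, with a 95th percentile of 522.4 against a median of 1130.5 over PQR309 arrays. The 4 h ibrutinib arrays of U2932 and RIVA were dim too, at 586.7 and 657.1 against a median of 1126.5 over ibrutinib arrays. Under PQR309 the same lines stood at 810.6 and 1296 at 4 h. The RIVA 12 h ibrutinib array reached a maximum of 26250. Of 5 B-lineage markers on the array, 4 lay above the level that stood in for a detection limit, 6.26 on the log2 scale, on all arrays of both drugs, and PAX5 lay above it on none. Summed log2 levels of 8 T-cell markers were 48 to 49.6 under PQR309 and 48.1 to 49.7 under ibrutinib, those of 7 myeloid markers 42.8 to 44 and 42.6 to 44.3, and those of 7 stromal and endothelial markers 43.1 to 48.4 and 43.4 to 47.8. CD3D, CD3E and CD3G of T cells, S100A8 and S100A9 of myeloid cells and CDH5 of endothelium were above the limit on no array of either drug. Other markers were above it: the mesenchymal gene VIM at 7.29 to 11.9 under PQR309 and 7.47 to 11.3 under ibrutinib, FCGR3A at 6.59 to 7.41 and 6.45 to 7.34, and, on some arrays, LCK up to 6.99 and 7.40, CD5 up to 7.35 and 7.32 and PECAM1 up to 7.22 and 7.15. Only 4 B-lineage, 2 T-cell, 2 myeloid and 3 stromal and endothelial markers were among the genes tested, and none of these passed. The part of the markers in the results was not tested. The labels name no chip or hybridisation, and they do not say whether PQR309 and ibrutinib arrays were hybridised together, so drug and array batch cannot be told apart.

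Values below are log2 intensities after normalization. A difference is PQR309 minus ibrutinib, given with its standard error (SE) from the spread pooled over all treatments. A gene was called at a Benjamini-Hochberg adjusted p under 0.05 over all 12559 genes tested with limma. Averaged over the 3 times, 7 genes were called, which is 0.0557% of those tested. PQR309 left 6 genes higher than ibrutinib did, PPP1R15A, PPP3CA-DT, HLA-DMB, UBALD2, CDC25C and PRIM1, which is 0.0478%, and 1 gene lower, DNAJB1, which is 0.00796%. At an unadjusted p under 0.05 there were 1422 genes, 11.3%, with 776 higher (6.18%) and 646 lower (5.14%). The median difference over all genes was 0.011. With only the 2 drugs in the model the count was 64, with median scaling in place of quantile normalization it was 0, and without RIVA or without U2932 it was 0. Without the RIVA 12 h arrays the count was 11, of which 7 were the same genes, and without the SUDHL2 8 h arrays it was 14, of which 6 were the same genes.

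PPP1R15A, which directs protein phosphatase 1 to the translation factor eIF2 alpha and so ends the translation block of the stress response, differed most among the called genes. Line means under PQR309 were 9.15 in RIVA, 10.87 in TMD8, 9.98 in SUDHL2 and 9.43 in U2932, against 8.49 in RIVA, 10.05 in TMD8, 8.74 in SUDHL2 and 8.77 in U2932 under ibrutinib. PQR309 exceeded ibrutinib in 12 of 12 pairs of line and time, although the levels of the 2 drugs overlapped across lines. The difference was 0.84 (SE 0.12, n = 4 lines, limma adjusted p = 0.0201), with a 95% interval of 0.58 to 1.10. Against DMSO, PPP1R15A fell by 1.10 under ibrutinib (limma adjusted p = 0.00117), while under PQR309 the difference from DMSO was -0.26 (limma adjusted p = 0.182).

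HLA-DMB encodes the beta chain of HLA-DM, which loads peptides onto MHC class II molecules. Its line means were 11.94 in RIVA, 10.94 in TMD8, 9.04 in SUDHL2 and 11.12 in U2932 under PQR309, against 11.18, 10.36, 8.43 and 10.77 in the same lines under ibrutinib. The level was higher under PQR309 in 12 of 12 pairs, and SUDHL2 was the lowest line under either drug. The difference was 0.57 (SE 0.09, n = 4 lines, limma adjusted p = 0.0204). HLA-DMB rose against DMSO by 0.45 under PQR309 (limma adjusted p = 0.00376), and under ibrutinib its difference from DMSO was -0.12 (limma adjusted p = 0.434).

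UBALD2 varied least between lines among the called genes that were higher. Line means were 7.99 in RIVA, 8.93 in TMD8, 8.50 in SUDHL2 and 8.40 in U2932 under PQR309, against 7.47, 8.32, 7.93 and 7.82 in the same lines under ibrutinib. All 4 line differences lay between 0.52 and 0.60, and PQR309 was higher in 12 of 12 pairs. The difference was 0.57 (SE 0.08, n = 4 lines, limma adjusted p = 0.0117). PPP3CA-DT, a non-coding transcript that starts next to the calcineurin gene PPP3CA, was higher by 0.62 (SE 0.10, n = 4 lines, limma adjusted p = 0.0273), with levels of 7.38 to 8.71 and a median of 8.02 over the 12 PQR309 arrays and 6.90 to 8.17 and a median of 7.21 over the 12 ibrutinib arrays. Against DMSO, UBALD2 rose by 0.46 and PPP3CA-DT by 0.48 under PQR309 (limma adjusted p = 0.00162 and 0.00624), and under ibrutinib the differences were -0.11 and -0.14 (limma adjusted p = 0.426 and 0.447).

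Both remaining genes that were higher act in the cell division cycle. CDC25C, the phosphatase that activates CDK1 at entry into mitosis, averaged 8.54 ± 0.12 under PQR309 and 8.13 ± 0.11 under ibrutinib (SD, n = 4 lines), a difference of 0.41 (SE 0.07, limma adjusted p = 0.0273), and was higher in 10 of 12 pairs. PRIM1, the catalytic subunit of the primase that starts new DNA strands, averaged 9.61 ± 0.21 under PQR309 and 9.25 ± 0.18 under ibrutinib (SD, n = 4 lines), a difference of 0.36 (SE 0.06, limma adjusted p = 0.0273), and was higher in 12 of 12 pairs. Both rose against DMSO under PQR309, CDC25C by 0.65 and PRIM1 by 0.44 (limma adjusted p = 0.000162 and 0.000647). Under ibrutinib their differences from DMSO were 0.24 and 0.08 (limma adjusted p = 0.0561 and 0.445).

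DNAJB1, a co-chaperone that stimulates HSP70, was the called gene that was lower under PQR309. Line means were 8.27 in RIVA, 8.17 in TMD8, 8.30 in SUDHL2 and 8.29 in U2932 under PQR309, against 8.68, 8.75, 8.78 and 8.89 in the same lines under ibrutinib. The 12 PQR309 arrays ran from 8.08 to 8.54 and the 12 ibrutinib arrays from 8.55 to 9.12, so the ranges of the 2 drugs did not overlap. The difference was -0.52 (SE 0.09, n = 4 lines, limma adjusted p = 0.0455). DNAJB1 fell by 0.50 against DMSO under PQR309 (limma adjusted p = 0.00288), and under ibrutinib it differed from DMSO by 0.02 (limma adjusted p = 0.908).

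**Figure D1:**
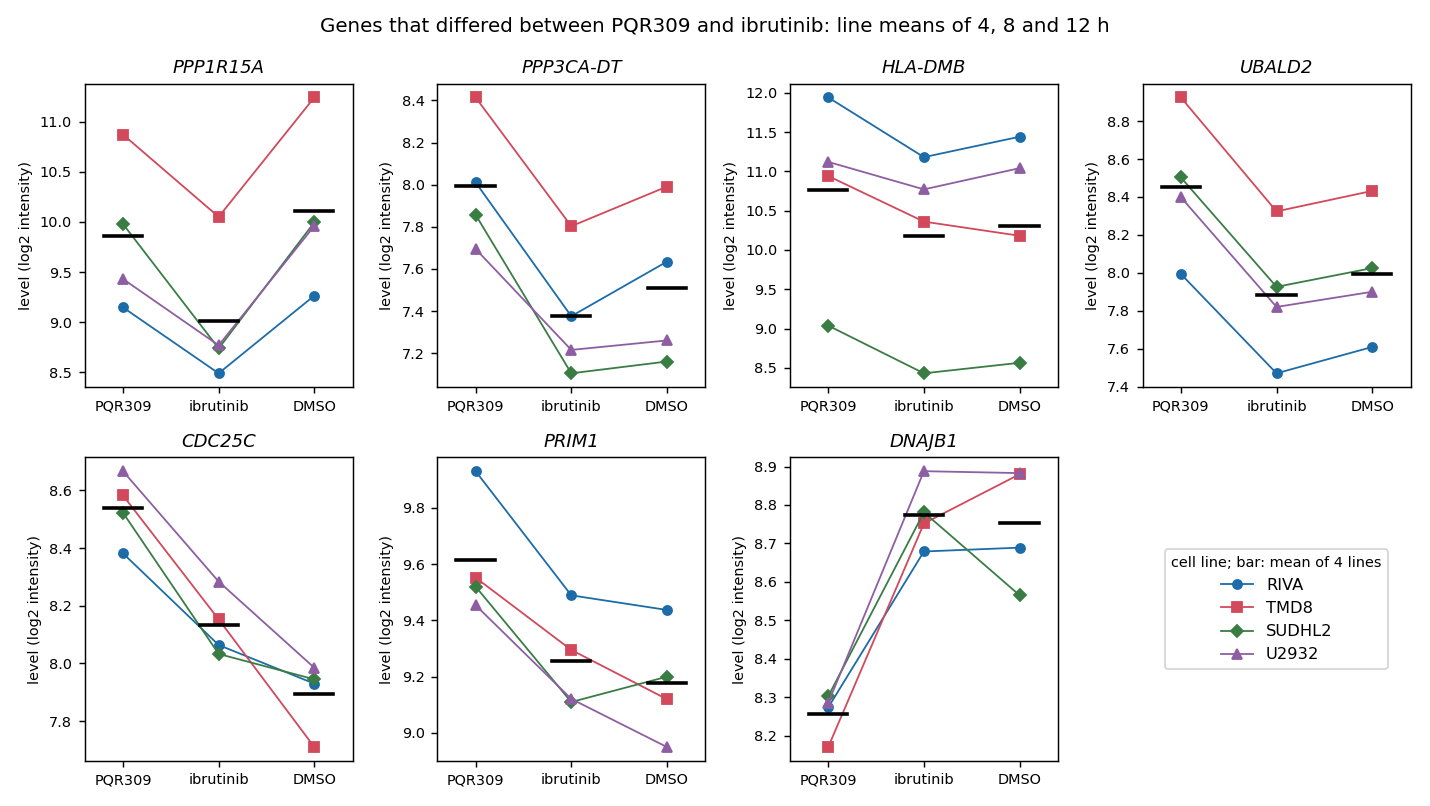
Levels (log2 intensity, mean of 4, 8 and 12 h) of the 7 called genes under PQR309, ibrutinib and DMSO; each point is 1 cell line, lines join a cell line's values and black bars are means of 4 lines. PPP1R15A is lowest under ibrutinib in all 4 lines, whereas the DNAJB1 means under PQR309 lie between 8.17 and 8.30, below every ibrutinib value.

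A second set of values bears on the PQR309 side. For the PQR309 and DMSO samples, the authors' normalized values ranked probes differently from the raw values under the same labels (rank correlations 0.816 to 0.91). Whether they came from other arrays or other RNA is not stated, so they cannot be taken as an independent replicate. In the normalized values, PQR309 minus DMSO averaged 0.55 ± 0.25 for HLA-DMB, 0.50 ± 0.10 for PPP3CA-DT, 0.25 ± 0.11 for UBALD2, 0.30 ± 0.17 for CDC25C and 0.26 ± 0.12 for PRIM1 (SD, n = 4 lines), each above 0 in 4 of 4 lines. DNAJB1 averaged -0.45 ± 0.24 and was below 0 in 4 of 4 lines. PPP1R15A averaged -0.08 ± 0.36 and was above 0 in 1 of 4 lines.

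Each drug was also compared with DMSO in the same model. Under PQR309, 1696 genes were called against DMSO (13.5% of 12559), 907 higher (7.22%) and 789 lower (6.28%), and under ibrutinib 373 (2.97%), 150 higher (1.19%) and 223 lower (1.78%). The comparisons share their DMSO arrays, so their values are given side by side only. The SUDHL2 8 h DMSO array was also dim, with a 95th percentile of 300.9. Without the SUDHL2 8 h arrays of every treatment the counts were 1872 under PQR309 and 171 under ibrutinib, and without the RIVA 8 h and 12 h arrays they were 1051 and 536. The direct test between the drugs called 7 genes.

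**Figure D2:**
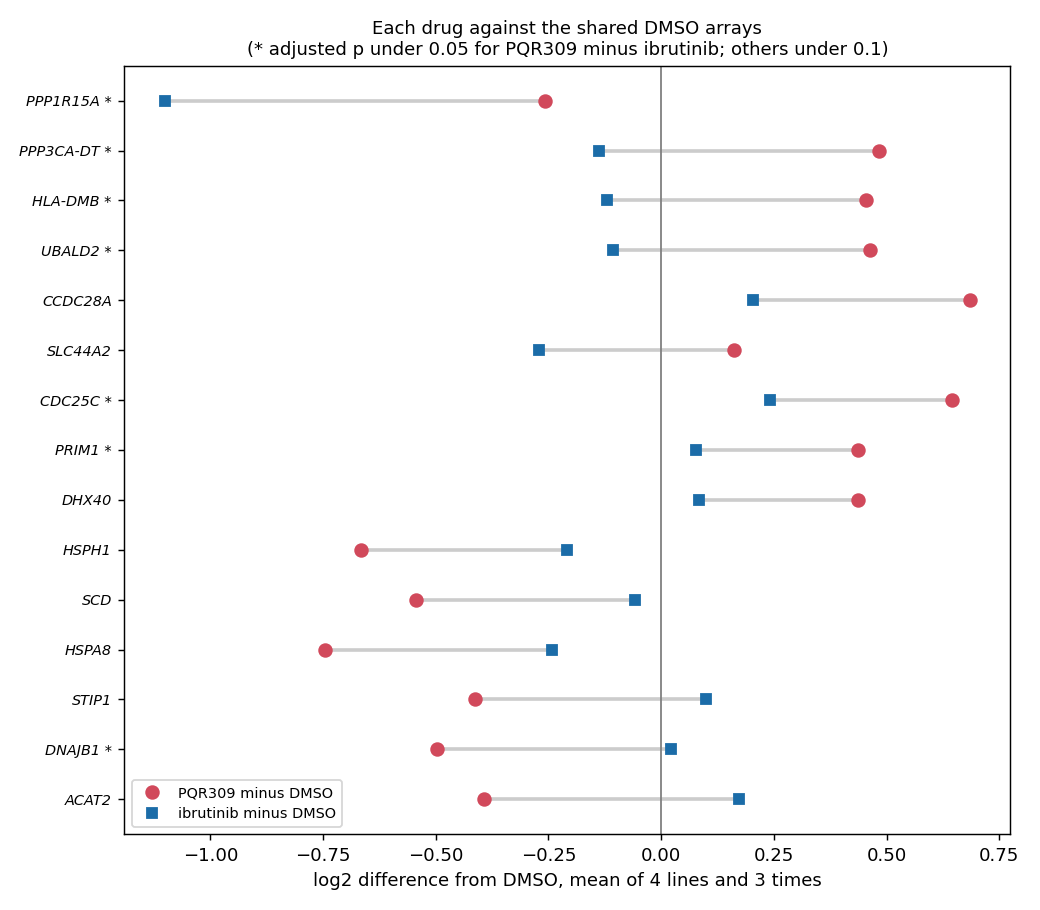
Differences from DMSO (log2, mean of 4 lines and 3 times) under PQR309 (circles) and ibrutinib (squares) for the 15 named genes with an adjusted p under 0.1 between the drugs, ordered by that difference; asterisks mark adjusted p under 0.05. PPP1R15A is at -0.26 under PQR309 and at -1.10 under ibrutinib, and DNAJB1 is at -0.50 under PQR309 and at 0.02 under ibrutinib.

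At 4 h, 6 genes were called (0.0478%), 5 higher (0.0398%) and 1 lower (0.00796%) under PQR309. PRIM1 differed by 0.55 (SE 0.08, limma adjusted p = 0.0192, n = 4 lines) and CDC25C by 0.64. The other 3 that were higher were HBP1, a transcriptional repressor that FOXO factors raise, by 0.65, ANKRA2, an ankyrin-repeat protein, by 0.64, and CCDC28A by 0.57. HSPA8, the constitutive HSP70 chaperone, was lower, with a difference of -0.55 (SE 0.09). These 5 genes shared a limma adjusted p of 0.0417 (n = 4 lines). Without any single line the count at 4 h was 0, and it was also 0 with only the 2 drugs in the model or with a gene's probes averaged. Median scaling in place of quantile normalization gave 0 as well. The U2932 and RIVA ibrutinib arrays at 4 h were dim, and their part in these calls was not tested.

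At 8 h limma called 0 genes, with 815 at an unadjusted p under 0.05 (6.49%) and a smallest adjusted p of 0.0949. At 12 h it called 0, with 1564 at an unadjusted p under 0.05 (12.5%) and a smallest adjusted p of 0.0827. PPP1R15A had a difference of 1.02 at 8 h and 0.88 at 12 h, against 0.63 at 4 h, and did not pass at any single time. The change between 4 and 12 h, which is the test of a time effect on the difference, called 0 genes, with 1597 at an unadjusted p under 0.05 (12.7%) and a smallest adjusted p of 0.118. CDC25C had differences of 0.64, 0.37 and 0.20 at 4, 8 and 12 h, and PRIM1 of 0.55, 0.37 and 0.16, with limma adjusted p for the change of 0.239 and 0.207 (n = 4 lines each). The 3 genes of smallest p for the change were DCTN5, a dynactin subunit, at -0.25 at 4 h and 0.52 at 12 h, TROAP at -0.16 and 0.62, and SERTAD1 at -0.52 and 0.27, and none of them passed. Without TMD8 the count was 342 at 12 h and 101 for the change, and without SUDHL2 it was 7 at 8 h.

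**Figure D3:**
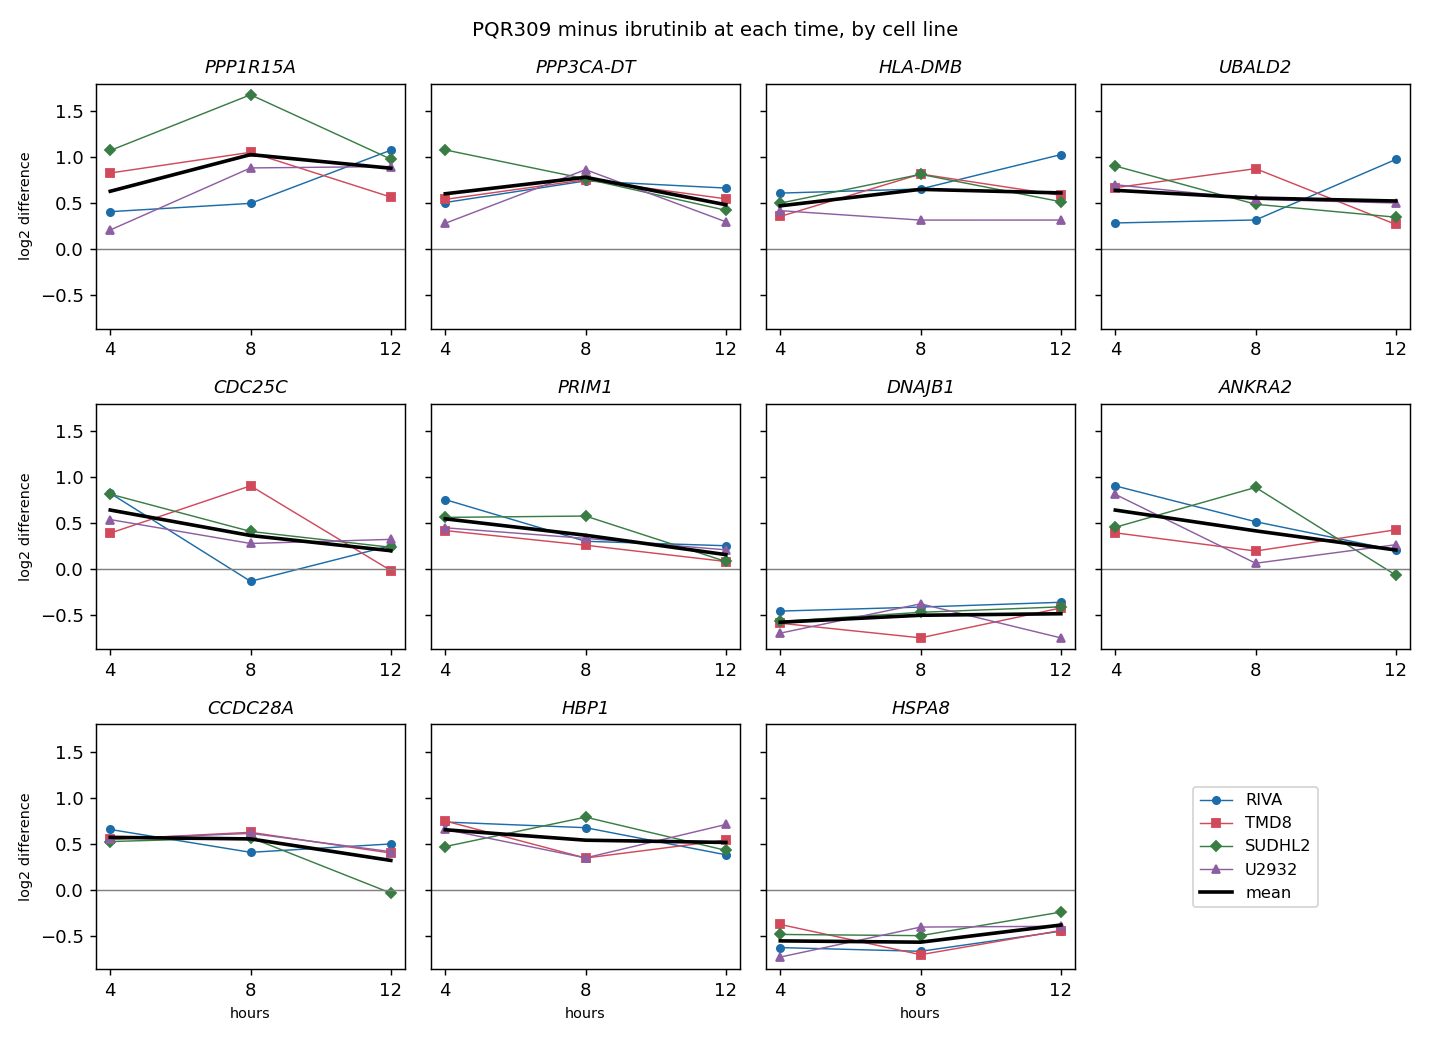
PQR309 minus ibrutinib (log2 difference) at 4, 8 and 12 h for the 11 genes called in the mean over times or at 4 h; coloured lines are cell lines and the black line is their mean. CDC25C and PRIM1 means lie at 0.64 and 0.55 at 4 h and at 0.20 and 0.16 at 12 h, while DNAJB1 stays between -0.57 and -0.48.

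Genes were then grouped by pathway. The counts below are to be read beside the shares over all genes tested. Of these, 12.8% were higher under PQR309 in all 4 lines and 11.2% were lower in all 4. At an unadjusted p under 0.05, 6.18% were higher and 5.14% lower. Calls against DMSO were 7.22% higher and 6.28% lower under PQR309, and 1.19% higher and 1.78% lower under ibrutinib.

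Heat shock chaperones and their partners, which fold proteins and assist HSP70 and HSP90, had 27 measured members of 29 listed. All 27 differences were below 0, 20 of them (74.1%) were below 0 in all 4 lines, 1 was called (DNAJB1) and 16 had an unadjusted p under 0.05. The median difference was -0.258, with line medians of -0.267 in RIVA, -0.261 in TMD8, -0.248 in SUDHL2 and -0.161 in U2932. HSPA8 ran from 11.44 to 13.15 with a median of 11.91 over PQR309 arrays and from 12.12 to 13.39 with a median of 12.34 over ibrutinib arrays, and 0 of 12 pairs were higher under PQR309. Its mean difference was -0.50 (SE 0.09, limma adjusted p = 0.0551, n = 4 lines). STIP1, which links HSP70 to HSP90, differed by -0.51 (limma adjusted p = 0.0581, n = 4 lines), HSPH1, an HSP110 exchange factor, by -0.46 (0.0963), and CHORDC1, an HSP90 partner, by -0.47 (0.13), and these 4 genes did not pass over the mean of times. Against DMSO, 18 of the 27 fell under PQR309, with a median of -0.414, and 1 fell under ibrutinib, with a median of -0.10. Over all genes tested, 6.28% fell under PQR309 and 1.78% under ibrutinib.

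**Figure D4:**
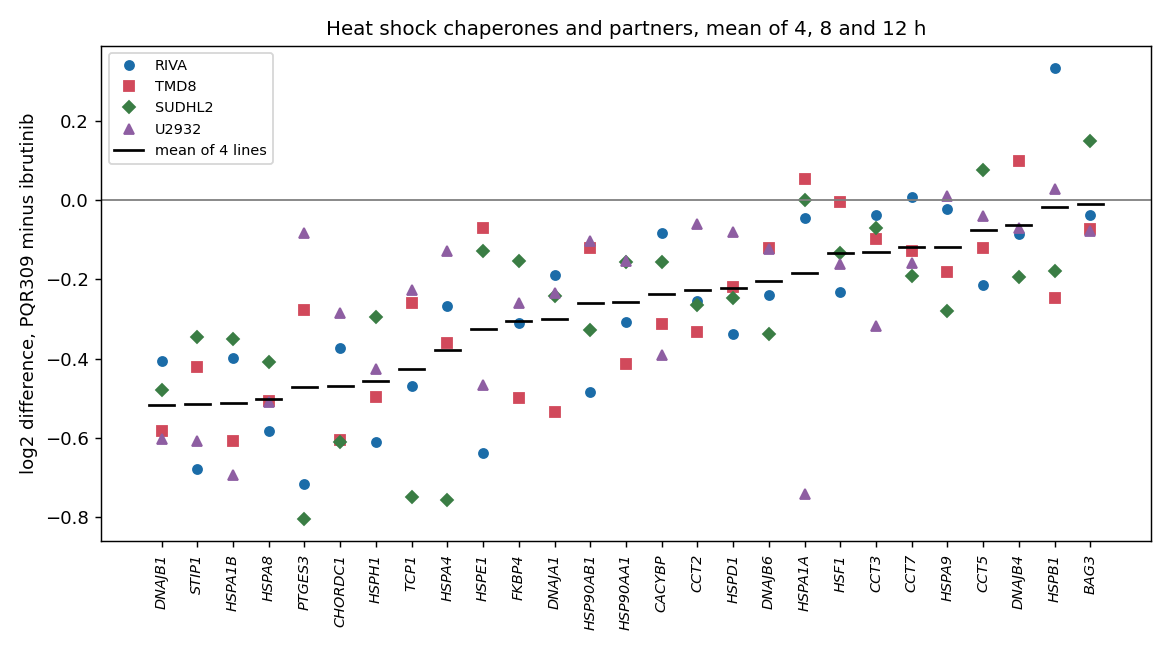
PQR309 minus ibrutinib (log2 difference, mean of 3 times) for the 27 measured chaperones and partners, ordered by the mean of 4 lines (black bar); symbols are cell lines. Every mean lies below 0, from -0.52 to -0.01.

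The promoter windows of HSPA8 and DNAJB1 are shown because these 2 chaperones passed a test and had 0 of 12 pairs higher under PQR309, and that of HBP1 because it passed at 4 h and belongs to the FOXO-raised genes. They come from RefSeq, build GRCh38.p14, and run 5′ to 3′ on the gene's strand from 250 bases before the gene's start to 50 after it. Capitals mark, on either strand, GAANNTTC, the core of the heat shock element, GTAAACA, a FOXO motif, CACGTG, the E-box bound by MYC, and TGATGNAA, an ATF4 composite motif. The windows are chr11:123062087-123062386 on the minus strand for HSPA8, chr19:14529222-14529521 on the minus strand for DNAJB1 and chr7:107168753-107169052 on the plus strand for HBP1.
HSPA8: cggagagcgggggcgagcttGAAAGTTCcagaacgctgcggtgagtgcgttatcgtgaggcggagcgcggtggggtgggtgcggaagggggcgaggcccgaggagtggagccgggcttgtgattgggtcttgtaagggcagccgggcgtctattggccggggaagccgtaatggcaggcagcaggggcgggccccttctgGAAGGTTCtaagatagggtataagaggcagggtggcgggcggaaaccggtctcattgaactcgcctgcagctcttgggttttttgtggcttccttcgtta
DNAJB1: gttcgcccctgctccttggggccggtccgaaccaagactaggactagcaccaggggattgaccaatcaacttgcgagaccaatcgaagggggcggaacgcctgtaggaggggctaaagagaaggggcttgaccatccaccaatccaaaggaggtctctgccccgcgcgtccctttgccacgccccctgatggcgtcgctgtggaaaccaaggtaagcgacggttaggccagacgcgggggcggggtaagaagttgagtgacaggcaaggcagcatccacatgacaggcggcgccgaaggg
HBP1: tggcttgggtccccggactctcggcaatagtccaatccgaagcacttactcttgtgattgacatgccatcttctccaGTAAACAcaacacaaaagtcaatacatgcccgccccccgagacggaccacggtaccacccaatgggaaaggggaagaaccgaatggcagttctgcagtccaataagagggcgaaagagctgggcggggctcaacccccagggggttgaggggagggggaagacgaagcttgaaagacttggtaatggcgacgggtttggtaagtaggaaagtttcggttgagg
In the windows shown, HSPA8 holds 2 matches to GAANNTTC, DNAJB1 holds 0 matches to the 4 motifs, and HBP1 holds 1 match to GTAAACA. Only the first window listed for a gene was searched. A promoter at another start site of the same gene, DNAJB1 included, was therefore not read. Over all 35116 windows, which include non-coding genes, GAANNTTC occurred in 6.77%, GTAAACA in 3.42%, CACGTG in 7.26% and TGATGNAA in 3.62%. GAANNTTC occurred in 8 of the 25 chaperones with a window (32%) and GTAAACA in 6 of 29 FOXO-raised genes (20.7%). TGATGNAA occurred in 6 of 23 ATF4 targets (26.1%), and CACGTG in 15 of 39 ribosome biogenesis genes (38.5%) and 10 of 29 MYC-linked metabolism genes (34.5%). The FOXO-raised, ATF4 and MYC-linked lists are named for the factor whose motif was counted. GAANNTTC was chosen for the chaperones after the values were seen. Higher shares than over all windows could therefore be foreseen, and they say nothing about the drugs. A match is a run of letters and not a shown binding site.

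FOXO-raised genes leaned the other way. Of 34 measured, 16 (47.1%) were higher under PQR309 in all 4 lines and 1 was lower in all 4, 0 were called over the mean of times by limma, 14 had an unadjusted p under 0.05 in the higher direction, and the median difference was 0.235. KLHL24, an adaptor of a ubiquitin ligase, ran from 6.98 to 10.65 with a median of 9.48 under PQR309 and from 6.88 to 10.30 with a median of 8.90 under ibrutinib, and was higher in 12 of 12 pairs. Its difference was 0.51 (SE 0.12, limma adjusted p = 0.107, n = 4 lines), beside 0.57 for HBP1 (0.165), 0.41 for the cyclin CCNG2 (0.154) and 0.35 for FOXO3 (0.154). Against DMSO, KLHL24 rose by 1.01 under PQR309 and by 0.50 under ibrutinib (limma adjusted p = 0.000447 and 0.0403). Across the list, 15 rose and 1 fell against DMSO under PQR309 (median 0.34), and 4 rose under ibrutinib (median 0.141). Over all genes tested, 7.22% rose under PQR309 and 1.19% under ibrutinib.

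Among genes of lipid synthesis, 18 of 20 in cholesterol synthesis and 15 of 19 in fatty acid synthesis had differences below 0, and none was called. Of the 20 genes of cholesterol synthesis, 12 (60%) were lower in all 4 lines, 0 were higher in all 4, 0 were called and 11 had an unadjusted p under 0.05, with a median of -0.232. ACAT2, which makes acetoacetyl-CoA, ran from 9.71 to 11.19 with a median of 10.26 under PQR309 and from 10.22 to 11.58 with a median of 10.84 under ibrutinib, with 0 of 12 pairs higher. Its difference was -0.57 (SE 0.11, limma adjusted p = 0.0553, n = 4 lines), and MSMO1, DHCR7 and SQLE, later enzymes of the pathway, differed by -0.52, -0.46 and -0.35 (limma adjusted p = 0.1 each). The list's median against DMSO was -0.21 under PQR309, where 6 genes fell and 1 rose, and 0.123 under ibrutinib, where 0 passed. SUDHL2 had the smallest line median, -0.0691, against -0.302 in RIVA, -0.265 in TMD8 and -0.168 in U2932. Of 19 genes of fatty acid synthesis, 9 (47.4%) were lower and 2 higher in all 4 lines, 9 had an unadjusted p under 0.05 in the lower direction and 2 in the higher, and the median was -0.162. The desaturase SCD differed by -0.49 (limma adjusted p = 0.0669, n = 4 lines), and fatty acid synthase FASN by -0.65 (0.107), with -0.04 in SUDHL2 and -0.96 in RIVA. LPIN1, the lipid phosphatase lipin 1, stood on the other side, at 0.46 (limma adjusted p = 0.167, n = 4 lines), and was higher under PQR309 in 11 of 12 pairs.

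Of 45 ribosome biogenesis genes, 27 (60%) were lower and 1 higher in all 4 lines, 0 were called, 18 had an unadjusted p under 0.05 in the lower direction, and the median was -0.193. CCDC86 and LYAR, both nucleolar, differed by -0.50 and -0.45 (limma adjusted p = 0.187 and 0.232, n = 4 lines), and DKC1, which modifies ribosomal RNA, by -0.29 (0.21). Against DMSO, 34 of the 45 fell under PQR309 (median -0.456) and 14 fell under ibrutinib (median -0.282), beside 6.28% and 1.78% of all genes tested. Of 31 genes of nucleotide, polyamine and mitochondrial import functions linked to MYC, 18 (58.1%) were lower and 1 higher in all 4 lines, with a median of -0.171. HSPD1 and HSPE1 stand in both this list and the chaperones. The 18 cytosolic tRNA synthetases had a median of -0.117, with 7 (38.9%) lower and 0 higher in all 4 lines. The 63 ribosomal proteins had a median of 0.0131, with 14 (22.2%) higher and 5 lower in all 4 lines, and RNA18SN5, the 18S ribosomal RNA, differed by 0.82 in RIVA, -0.28 in TMD8, 1.04 in SUDHL2 and -0.14 in U2932. Its single arrays swung more than these differences. Under ibrutinib they read 8.30, 10.99 and 6.94 at 4, 8 and 12 h in TMD8 and 10.04, 7.55 and 6.40 in U2932.

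Of 44 genes of G2 and mitosis, 21 (47.7%) were higher and 1 lower in all 4 lines, 1 was called (CDC25C), and the median was 0.116. CENPA, the histone variant of centromeres, differed by 0.21, the kinesin KIF2C by 0.30 and CENPF by 0.22 (limma adjusted p = 0.221, 0.232 and 0.254, n = 4 lines). Of 40 genes of G1/S and replication, 4 were higher and 6 lower in all 4 lines, 1 was called (PRIM1), and the median was -0.0318. Against DMSO, 24 of the 44 G2 and mitosis genes rose under PQR309 and 7 under ibrutinib, beside 7.22% and 1.19% of all genes tested.

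The 27 early B-cell receptor genes had a median of 0.0647, with 7 (25.9%) higher and 0 lower in all 4 lines. Their line medians were -0.102 in RIVA, 0.0531 in TMD8, 0.129 in SUDHL2 and 0.095 in U2932. The 40 NF-kB targets had a median of 0.06, with 7 (17.5%) higher and 3 (7.5%) lower in all 4 lines. 0 genes of either list were called, and 5 of each had an unadjusted p under 0.05 in the higher direction. Against DMSO the early receptor genes had medians of -0.204 under PQR309 and -0.282 under ibrutinib, and the NF-kB targets -0.178 and -0.291. Called lower against DMSO were 7 early receptor genes under PQR309 and 5 under ibrutinib. Among NF-kB targets, 10 fell and 1 rose under PQR309, and 8 fell under ibrutinib. The shares of all genes that fell were 6.28% and 1.78%. JUN, an AP-1 subunit, differed between the drugs by 0.99 in RIVA, 0.03 in TMD8, 1.01 in SUDHL2 and 0.55 in U2932, a mean of 0.64 (limma adjusted p = 0.282, n = 4 lines). Under ibrutinib JUN read 5.99 to 6.43 in RIVA and 6.09 to 6.45 in U2932, at or near the stand-in limit of 6.26. Under PQR309 it averaged -0.34 ± 0.82 against DMSO (SD, n = 4 lines) and was above 0 in 3 of 4 lines. CD69, an early activation marker that also holds lymphocytes in tissue, differed by 1.18 (SE 0.42, limma adjusted p = 0.283, n = 4 lines), with 2.02 in RIVA and 0.71 in TMD8. The lymph node homing receptor CCR7 differed by 0.66 (limma adjusted p = 0.254, n = 4 lines).

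The remaining immune lists had few called members. Of 10 MHC class II genes, 1 was called (HLA-DMB) and the median was 0.0641. HLA-DMA, the partner chain of HLA-DMB, differed by 0.56 in RIVA, 0.59 in TMD8, 0.64 in SUDHL2 and 0.01 in U2932. FCMR, the IgM receptor of B cells, differed by 0.70 (limma adjusted p = 0.1, n = 4 lines). Of 16 measured members of the BCL2 family, 0 were called, 6 (37.5%) were higher and 1 was lower in all 4 lines, 4 had an unadjusted p under 0.05 in the higher direction, and the median was 0.0704. The cell death promoters HRK and BMF differed by 0.69 and 0.49 (limma adjusted p = 0.211 and 0.232, n = 4 lines), and against DMSO both rose under PQR309, by 1.05 and 0.83 (0.00387 and 0.00297). HRK lay below 6.26 on all SUDHL2 arrays of both drugs, so its value there is background. The survival gene BCL2 differed by 0.29 (limma adjusted p = 0.215, n = 4 lines), higher in 11 of 12 pairs, and rose against DMSO under PQR309 (limma adjusted p = 0.0355). The 37 interferon genes had a median of -0.0621 and a TMD8 median of -0.408, and IFIT1, an antiviral RNA-binding protein, differed by -1.76 in TMD8. Its TMD8 arrays read 8.41, 7.37 and 6.92 at 4, 8 and 12 h under PQR309 and 9.49, 9.25 and 9.23 under ibrutinib. In the other lines it was at 5.71 to 6.41 under both drugs, at or near the stand-in limit, so a response there could not be read.

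The transcripts of the drugs' own targets did not pass the test. BTK differed by -0.02, PIK3CB by -0.24, PIK3CD by -0.02, PIK3CG by 0.31 and MTOR by -0.10 (limma adjusted p = 0.965, 0.426, 0.929, 0.389 and 0.618, n = 4 lines), and PIK3CA was not among the genes tested. Among 28 measured components of the PI3K, AKT and mTOR pathway, 7 (25%) were lower and 1 higher in all 4 lines, 0 were called, and the median was -0.0343.

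**Figure D5:**
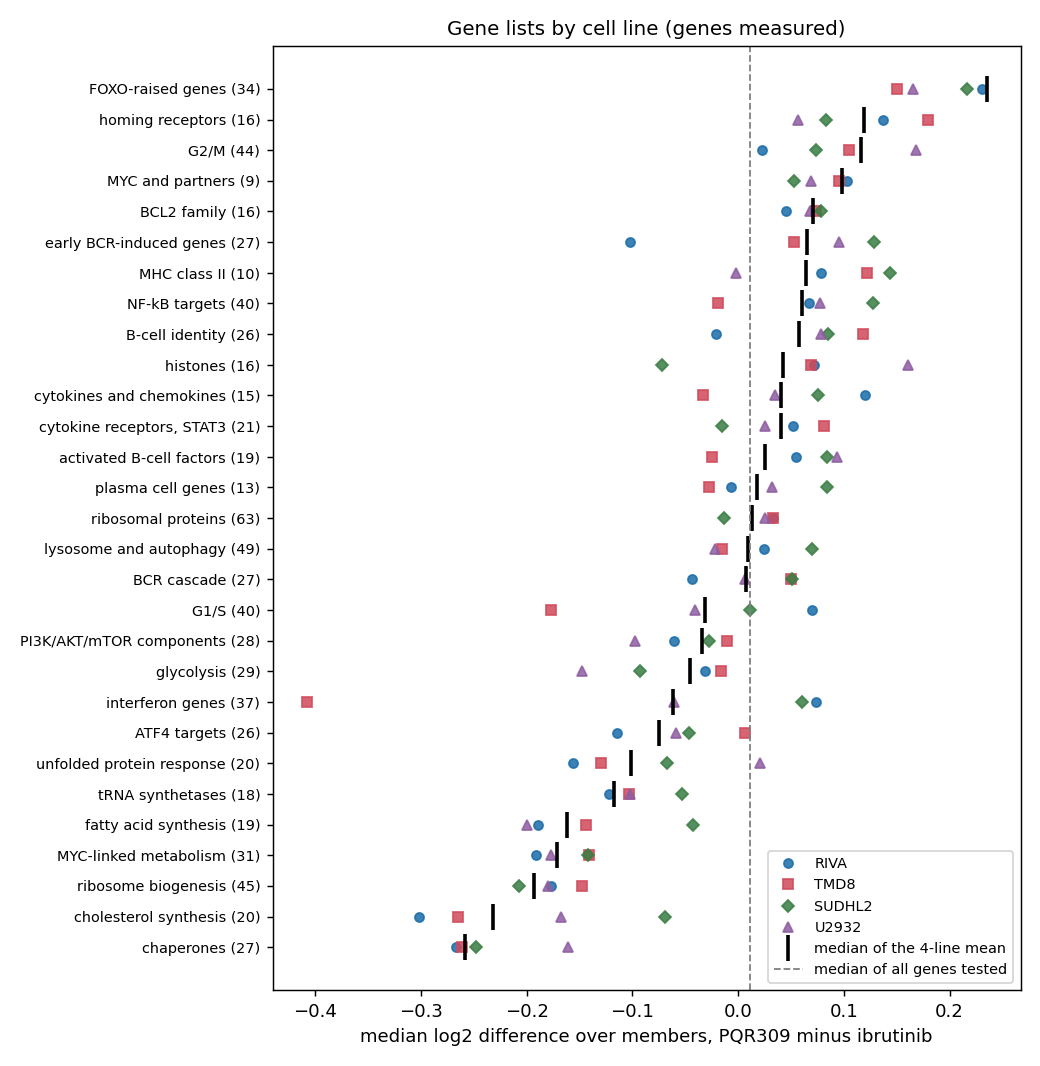
Median log2 difference, PQR309 minus ibrutinib, over the measured members of 29 gene lists; symbols are the medians in each cell line, black bars the median of the 4-line means, and the dashed line the median of all genes tested, 0.011. Chaperones (-0.258) and cholesterol synthesis (-0.232) lie at the low end and FOXO-raised genes (0.235) at the high end.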

How the data were processed

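The authors deposited a raw table of probe intensity and a normalized table of log2 values, made in GenomeStudio per the submitters' processing notes, which give no version. For 3 arrays of another line the deposited raw columns hold a detection p-value in place of an intensity, and from these the share of detected probes, 39.0% to 40.2%, was taken. The authors' log2 values came from 2 separately normalized sets, of 48 arrays (PQR309 and DMSO among them) and 36 arrays (ibrutinib among them), so the 60 raw arrays of 4 lines under 5 treatments were used. Their intensities were background-corrected by normexp (offset 50), quantile-normalized and log2-transformed in limma 3.58.1 (R 4.3.3, data.table version 1.17.8). Those of the 24 PQR309 and DMSO arrays ranked probes differently from the normalized values (rank correlations 0.816 to 0.91). Of 47231 probes, 30113 had 1 gene symbol, 8 several and 17110 none, and 0 symbols were updated. Only the brighter 50% of probes entered, and each gene was read from its brightest probe. Values of 20 line means (or 20 arrays at 1 time) were fitted with treatment and line, which pools the residual spread of all 5 treatments. After removal of treatment means, a line's PQR309 and ibrutinib profiles correlated across genes at 0.944 to 0.967, and the pairing follows from the line names. Tests are two-sided. An exact sign test over 4 lines could not go below 0.125. Procedures were tested on simulated data. Alternatives covered background, normalization, filters, probes, samples, lines and times. Named genes were those called, the 4 largest in each direction at a time or the 3 of smallest p where fewer passed, up to 4 genes per list by p, drug targets and the 8 genes of largest line spread. Members, lists and motifs were chosen with earlier results of these data known, and GAANNTTC after the values were seen. The number of arrays limits the precision. Plots used Python 3.11.15 and matplotlib 3.10.9.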

Additional observations from a re-analysis of the deposited data

Results flagged for a closer look

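Among 144 named genes, 9 had 1 of 4 line differences (PQR309 minus ibrutinib, log2, mean of 3 times) set far apart from the other 3 by Dixon's criterion, and chance alone flags about 1 in 20 groups. The 144 include the 8 genes of largest line spread and genes chosen by p, so the count cannot be read against that rate. RIVA stood apart for DEPP1 (1.98, others -0.0114 to 0.0275), CD44 (1.34, others 0.216 to 0.296), LAT2 (-0.706, others -0.172 to -0.115) and FADS1 (-0.967, others -0.308 to -0.194). TMD8 stood apart for the interferon genes IFIT1 (-1.76, others -0.246 to -0.0374) and IFIT2 (-1.06, others -0.11 to 0.00341). IFIT1 in the other lines, and IFIT2 in SUDHL2 and U2932, were at 5.71 to 6.41 under both drugs, at or near the stand-in detection limit of 6.26, and so was DEPP1 in U2932, at 5.92 to 6.30. U2932 stood apart for HLA-DMA (0.0129, others 0.563 to 0.638). SUDHL2 stood apart for PIK3CB (-0.541, others -0.153 to -0.112) and for CCDC28A (0.352, others 0.52 to 0.527). Each value rests on 3 arrays per drug of 1 line.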

How the results depend on the processing

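The 7 calls of the mean over times became 0 with median scaling in place of quantile normalization (250 at an unadjusted p under 0.05), 69 with only the 24 arrays of the drugs normalized and fitted, 64 with only the 2 drugs in the fit, 0 with no replicate block (no line term), 15 with the brightest 25% of probes and 4 with a gene's probes averaged. They became 1, 0 and 41 without the 4 h, 8 h and 12 h arrays, and 0 to 9 with 1 line left out (0 without RIVA, 4 without TMD8, 9 without SUDHL2, 0 without U2932). With alternatives chosen after seeing the data, they became 11 without the RIVA 12 h arrays, 14 without the SUDHL2 8 h arrays and 10 without both. Against DMSO, the 1696 calls under PQR309 became 1872 without the SUDHL2 8 h arrays and 1051 without the RIVA 8 h and 12 h arrays, and the 373 under ibrutinib became 171 and 536. The 6 calls at 4 h became 3 with no background correction and 3 with no filter, and 0 with median scaling, the 24 arrays alone, the 2 drugs alone, no line block, averaged probes or any line left out. At 8 h the count was 0 to 7 with 1 line left out, at 12 h 1 with no background correction or no filter and 0 to 342 with 1 line left out (342 without TMD8), and for the change 0 to 101 (101 without TMD8). The causes were not tested. Median scaling moved the median of all genes to 0.141 at 4 h and -0.211 at 8 h. Over 18 alternatives the called genes kept their sign and were called in 7 (CDC25C) to 11 (PPP1R15A, UBALD2), with adjusted p from 0.00383 to 1. The chaperone median stayed between -0.333 and -0.184, cholesterol between -0.329 and -0.195, ribosome biogenesis between -0.279 and -0.159 and FOXO-raised genes between 0.163 and 0.265. With 4 lines, 1 array per time and no dose, small differences were not detectable, and genes near background could be kept.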

Other observations

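Outside the lists, FCGBP had a difference of 0.87 (limma adjusted p = 0.1, n = 4 lines), with 1.59 in RIVA, 0.44 in TMD8 and 1.30 in SUDHL2, while all its U2932 arrays of both drugs lay below the stand-in detection limit of 6.26. SLC44A2, a choline transporter, was close to even between lines in the mean of times, at 0.49 in RIVA, 0.41 in TMD8, 0.40 in SUDHL2 and 0.44 in U2932. Its mean of 0.43 had a limma adjusted p of 0.0553. Single times were uneven: RIVA read 9.93 under PQR309 and 10.01 under ibrutinib at 8 h, and 10.19 and 9.19 at 12 h. SLC44A2 was higher under PQR309 in 10 of 12 pairs. It stood at 0.16 against DMSO under PQR309 and at -0.27 under ibrutinib, and neither passed. The receptor IL4R differed by 0.54 (limma adjusted p = 0.154), with differences of 0.29, 0.36 and 0.98 at 4, 8 and 12 h. YWHAE, a 14-3-3 protein, differed by -1.69 in RIVA and by -0.35 to 0.09 in the other lines, and TLR10 by -1.40 in RIVA and by -0.31 to 0.22 in the others. Single YWHAE arrays were very uneven. Under ibrutinib they read 10.91, 8.31 and 11.35 at 4, 8 and 12 h in RIVA and 10.64, 7.55 and 11.16 in U2932. PQR309 minus DMSO for YWHAE averaged 0.45 in the raw values (higher in 4 of 4 lines) and -0.25 in the authors' normalized values (higher in 0 of 4).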
